A study of Homo sapiens with 24 samples.

Results

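GAS5, SNHG3 and SNHG12 are long non-coding genes on chromosome 1 that carry small nucleolar RNAs (snoRNAs) in their introns, and they were followed across transfection with EVI1 and exposure to hydrogen peroxide in HEK293 cells, an established human embryonic kidney line. They were chosen by gene symbol and take 3 of the 11579 rows of the deposited expression table, 1 row each, so all 3 were measured and no filter on low values removed any of them. The measurement was 3′ mRNA sequencing of polyadenylated RNA in 24 libraries, in 8 groups of 3 replicates. Cells were untransfected, or transiently transfected with empty vector (pCMV-flag), with EVI1-WT, a flag-tagged form of the transcriptional regulator EVI1, or with EVI1-AQA, in which a pair of carboxy-terminal serines is replaced by alanine so that they cannot be phosphorylated. Each of the 4 transfection states was sampled without treatment and after 8 h in 150 μM H2O2. The labels also describe luciferase reporter plasmids added with the EVI1 plasmids, and do not say whether the sequenced cells received them. The CMV promoter drives the transgene, every group comes from the same line, and replicates carry a batch number that is shared by all 8 groups. The labels do not say what a batch was, so p-values measure the spread between these samples, which may be in part technical.

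A snoRNA host gene is transcribed and spliced, and the snoRNAs are trimmed out of the removed introns. Most but not all box C/D members guide methylation, and most but not all box H/ACA members guide pseudouridylation, of ribosomal and other RNAs. The spliced exons of GAS5 (growth arrest specific 5) carry no long conserved reading frame, are bound by ribosomes and are degraded by nonsense-mediated decay, so the level of the spliced RNA is known to depend on translation and growth. Many host genes belong to the 5′ terminal oligopyrimidine class, whose RNAs begin with a C followed by a run of pyrimidines and which includes the ribosomal protein genes. Libraries of this kind read the 3′ ends of spliced polyadenylated RNA, so the values below are those of the host transcripts, and the snoRNAs themselves were not measured.

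In GENCODE v44 on GRCh38, GAS5 (ENSG00000234741) lies at chr1:173858559-173868882 on the minus strand with 91 annotated transcripts, SNHG3 (ENSG00000242125) at chr1:28505980-28510892 on the plus strand with 3, and SNHG12 (ENSG00000197989) at chr1:28578538-28583132 on the minus strand with 19. The RefSeq annotation of GRCh38.p14 places 11 snoRNA genes within GAS5, of which SNORA103 alone bears a name of the H/ACA class. It places SNORA73A and SNORA73B within SNHG3, and SNORD99, SNORA61, SNORA44 and SNORA16A within SNHG12. SNHG3 and SNHG12 are neighbours, with 67.6 kb between the end of the first and the start of the second. SNHG3 lies with all of its 4913 bases inside the span of RCC1 on the same strand, and some RCC1 transcripts begin in its first exon. SNHG12 shares 8 bases with TRNAU1AP on the opposite strand, and GAS5 shares 801 bases with ZBTB37 and 1469 with GAS5-AS1, both on the opposite strand. The library kit keeps the strand, but the sources used here do not state whether the counting used it, so reads from these overlaps cannot be assigned with certainty.

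The first 30 bases of 1 annotated transcript of each gene are shown because they bear on the oligopyrimidine class, with the opening run of C or T in capitals where it begins with C. Annotated starts vary, and the start shown is shared by 50 of 91 transcripts of GAS5, 1 of 3 of SNHG3 and 4 of 19 of SNHG12.
GAS5 (chr1:173867960-173867989, minus strand): CTTTTCgaggtaggagtcgactcctgtgag
SNHG3 (chr1:28505980-28506009, plus strand): agacattccaggacttccgggcacttcgta
SNHG12 (chr1:28581844-28581873, minus strand): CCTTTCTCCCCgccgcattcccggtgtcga
The runs cover 6 bases in GAS5 and 11 in SNHG12, and the start shown for SNHG3 is an A. That start belongs to 1 of 3 transcripts and does not place SNHG3 outside the class. Of 38907 protein-coding and long non-coding transcripts, the Ensembl canonical 1 per gene, 3.72% begin with a C and then at least 4 bases of C or T. The starts shown for GAS5 and SNHG12 are instead the most shared ones, so the choice of transcript differs. These are letters at annotated starts on the sense strand, and the start used in these cells was not measured.

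The last 60 bases of 1 annotated transcript each of SNHG3 and SNHG12 are shown because 3′ libraries take their reads next to such ends. AATAAA, a polyadenylation hexamer, is in capitals. The end shown is shared by 1 of 3 transcripts of SNHG3 and 10 of 19 of SNHG12.
SNHG3 (chr1:28510833-28510892, plus strand): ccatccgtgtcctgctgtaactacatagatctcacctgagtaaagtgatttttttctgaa
SNHG12 (chr1:28578538-28578597, minus strand): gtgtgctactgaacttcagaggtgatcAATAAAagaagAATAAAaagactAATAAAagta
SNHG12 has 3 copies of AATAAA, and these letters are not in the window of SNHG3. Other forms of the hexamer were not searched for, so this does not show that the SNHG3 end lacks a signal. The same transcripts as above hold AATAAA in their last 60 bases on the sense strand in 50.8% of cases.

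The values are log2 expression after the authors' normalization, and each row has a mean of 0 within each batch of 8 libraries, with a largest departure of 4.5e-06. A value is therefore a log2 difference from the mean of its batch. The table gives no absolute level, no comparison of levels between genes and no depth, so no interval of counting error is given. The largest median of a library over all rows was 0.0175 in size.

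The labels were looked at in the row labelled CACNB3, which earlier work on these data singled out after seeing it, because the row separates EVI1-transfected from other untreated cells. Its name is uncertain, and MECOM, which encodes EVI1, was not analysed here. In the untreated cells all 6 EVI1-transfected libraries lay at 2.62 or above in this row, and all 6 others at -1.64 or below. After H2O2, the libraries labelled empty vector replicate 2 (4.36), EVI1-WT replicate 2 (-4.38) and EVI1-AQA replicate 1 (-2.60) went against their groups. All libraries kept their labels, and differences after H2O2 are also given without these 3 libraries where that moves them by over 1.5 times. The library labelled untransfected untreated replicate 3 was the lowest of the 24 in GAS5, SNHG3 and SNHG12 alike. It was also the lowest in 11.8% of all rows, had the second highest spread over rows, and had a median of -0.30 over 9 cytosolic ribosomal protein genes. Results without this library were added after these values were seen. Replicate 2 of the same group had the highest spread over rows and was the lowest in 9.28% of all rows, and it was not left out alone.

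Row names look shifted on chromosomes 2 to 22, where 19.3% of coding genes and 16.4% of other genes have a row. On chromosome 1 these shares were 50.7% and 2.39%, within 5 Mb of SNHG3 64.0% and 1.44%, and within 5 Mb of GAS5 39.3% and 2.34%. Related genes were therefore taken from chromosomes 1 and X, and the rows named SNHG1, SNHG4, SNHG5, SNHG7 and SNHG11, on other chromosomes, were not read.

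GAS5, the host of mostly box C/D snoRNAs, moved least among the libraries. In untreated cells its values were -0.18, 0.21 and -0.56 in replicates 1, 2 and 3 of untransfected cells and 0.10, -0.24 and 0.0095 with empty vector. They were -0.30, 0.049 and -0.039 with EVI1-WT and -0.073, -0.22 and -0.13 with EVI1-AQA. The lowest and the highest untreated value both belong to untransfected cells, and the EVI1-AQA libraries lie closest together. After H2O2, GAS5 was at 0.042, 0.46 and -0.016 in untransfected cells and at 0.036, -0.091 and 0.075 with empty vector. It was at 0.17, 0.00086 and 0.31 with EVI1-WT and at 0.21, -0.17 and 0.35 with EVI1-AQA. The 12 treated libraries, from -0.17 to 0.46 with a median of 0.058, overlapped the 12 untreated ones, from -0.56 to 0.21 with a median of -0.10.

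SNHG3, the host of the paired SNORA73 genes, had the widest spread. In untreated cells its values in replicates 1, 2 and 3 were 0.11, -0.60 and -0.92 in untransfected cells, -0.14, 0.050 and -0.25 with empty vector, -0.086, -0.19 and -0.15 with EVI1-WT, and -0.34, 0.22 and -0.11 with EVI1-AQA. After H2O2 they were 0.63, -0.095 and 0.11 in untransfected cells, 0.43, 0.27 and 0.45 with empty vector, 0.12, 0.35 and 0.44 with EVI1-WT, and -0.73, 0.00069 and 0.43 with EVI1-AQA. With empty vector and with EVI1-WT every treated library lay above every untreated one, while the untreated EVI1-AQA libraries lay within the range of the treated ones. How many of all rows separate in this way was not counted. The unadjusted limma p of the H2O2 effect on SNHG3 was 0.080 with empty vector and 0.11 with EVI1-WT. With empty vector, 14.6% of all rows had an unadjusted limma p under 0.05. The library at -0.73 is the one labelled EVI1-AQA H2O2 replicate 1, which departed from its group in the row labelled CACNB3.

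SNHG12, the host of 3 H/ACA and 1 C/D snoRNA by name, was highest in EVI1-AQA cells after H2O2. In untreated cells its values in replicates 1, 2 and 3 were -0.51, 0.13 and -0.57 in untransfected cells, -0.024, 0.0011 and 0.073 with empty vector, 0.049, -0.31 and 0.12 with EVI1-WT, and -0.077, 0.078 and -0.49 with EVI1-AQA. After H2O2 they were 0.025, -0.10 and -0.14 in untransfected cells, 0.017, 0.015 and 0.47 with empty vector, 0.023, -0.025 and -0.15 with EVI1-WT, and 0.50, 0.21 and 0.70 with EVI1-AQA. The EVI1-AQA group after H2O2 did not overlap with untreated EVI1-AQA cells or with EVI1-WT cells after H2O2, and overlapped with empty vector cells after H2O2, whose replicate 3 was at 0.47. The share of all rows without overlap was not counted. An unadjusted limma p under 0.05 was reached by 14.8% of rows in the first comparison and by 8.33% in the second.

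The order of the group means shows how far the groups can be told apart. For GAS5 the means ran from -0.18 ± 0.39 (SD, n = 3) in untreated untransfected cells to 0.16 ± 0.16 with EVI1-WT and H2O2. All 4 treated groups of GAS5 stood above all 4 untreated ones, and the share of all rows with such an order was not counted. For SNHG3 they ran from -0.47 ± 0.53 in untreated untransfected cells to 0.38 ± 0.10 with empty vector and H2O2. For SNHG12 they ran from -0.32 ± 0.39 in untreated untransfected cells to 0.47 ± 0.25 with EVI1-AQA and H2O2. The pooled SD within groups was 0.23 for GAS5, 0.36 for SNHG3 and 0.25 for SNHG12, against a median of 0.24 over all rows. Neighbours in the order of means differed by less than this SD, except for SNHG12, where EVI1-AQA with H2O2 stood further above the next group, empty vector with H2O2 at 0.17 ± 0.26. Untreated untransfected cells had the lowest mean in all 3 genes, and this group holds the library that was lowest in each of them. The share of all rows in which this group has the lowest mean was not counted. Its replicates 1, 2 and 3 were the lowest of the 24 libraries in 4.34%, 9.28% and 11.8% of all rows. In the limma F-test over the 8 groups none of the 3 genes passed, with adjusted p = 0.59 for GAS5, 0.23 for SNHG3 and 0.15 for SNHG12, where 7.87% of all rows passed an adjusted p of 0.05.

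The effect of H2O2 across the 4 transfection states was positive in all 3 host genes, by 0.23 to 0.40 on the log2 scale, and none passed the threshold after adjustment over all rows. Each treated library was set against the untreated library of the same transfection state and batch, which gives 12 differences per gene. GAS5 was higher after H2O2 in 10 of 12 pairs, with a mean difference of 0.23 ± 0.21 (SD over 12 pairs), a 1.17-fold ratio. SNHG3 was higher in 10 of 12 pairs, by 0.40 ± 0.39, a 1.32-fold ratio. SNHG12 was higher in 9 of 12 pairs, by 0.25 ± 0.41, a 1.19-fold ratio. An exact two-sided sign-flip permutation test over the 12 pairs gave p = 0.0034 for GAS5, 0.0083 for SNHG3 and 0.042 for SNHG12, where the smallest p it can give is 0.00049. The 4 pairs of a batch were not independent experiments, so these values can be too small, and they are not adjusted for the other rows of the table.

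In limma, with the batch as a block, the averaged H2O2 effect was 0.23 for GAS5 (SE 0.095, 95% interval 0.030 to 0.43), with an adjusted p = 0.12. For SNHG3 it was 0.40 (SE 0.13, interval 0.12 to 0.68), with an adjusted p = 0.057. For SNHG12 it was 0.25 (SE 0.10, interval 0.046 to 0.46), with an adjusted p = 0.10. Over all rows 12.3% passed the adjusted threshold in either direction, with 6.62% higher and 5.65% lower after H2O2. All 3 genes had an unadjusted limma p under 0.05, as did 27.8% of all rows, 14.7% as higher. With the sign kept, the effect of SNHG3 was higher than that of 96.9% of rows. For SNHG12 this share was 89.6% and for GAS5 87.2%. These shares count every row that fell after H2O2 as lower, whatever the size of its fall.

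The batches gave the same direction with different sizes. The mean difference over the 4 pairs of batches 1, 2 and 3 was 0.23, 0.099 and 0.36 for GAS5, 0.23, 0.26 and 0.72 for SNHG3, and 0.28, 0.048 and 0.43 for SNHG12. Batch 3, which holds the low library of untreated untransfected cells, had the highest mean in each gene. Without that library the averaged effects were 0.17 for GAS5, 0.34 for SNHG3 and 0.22 for SNHG12, with limma adjusted p between 0.093 and 0.19. The library was picked for its low values in these genes and is untreated, so leaving it out had to lower the effects.

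SNHG3 lay close to the threshold and passed it in some of the alternatives. Without the 3 libraries that went against their labels in the row labelled CACNB3, its averaged effect was 0.49, with a limma adjusted p = 0.032. Without the library labelled EVI1-AQA H2O2 replicate 1 alone it was 0.49, with an adjusted p = 0.012, and without batch 3 it was 0.24, with an adjusted p = 0.38. EVI1-AQA H2O2 replicate 1 was left out alone after seeing the data, and it is also 1 of the 3 libraries. It holds the lowest treated value of SNHG3, -0.73, so leaving it out had to raise the effect, and that pass adds no support. For GAS5 and SNHG12 none of the 13 alternatives passed.

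**Figure D1:**
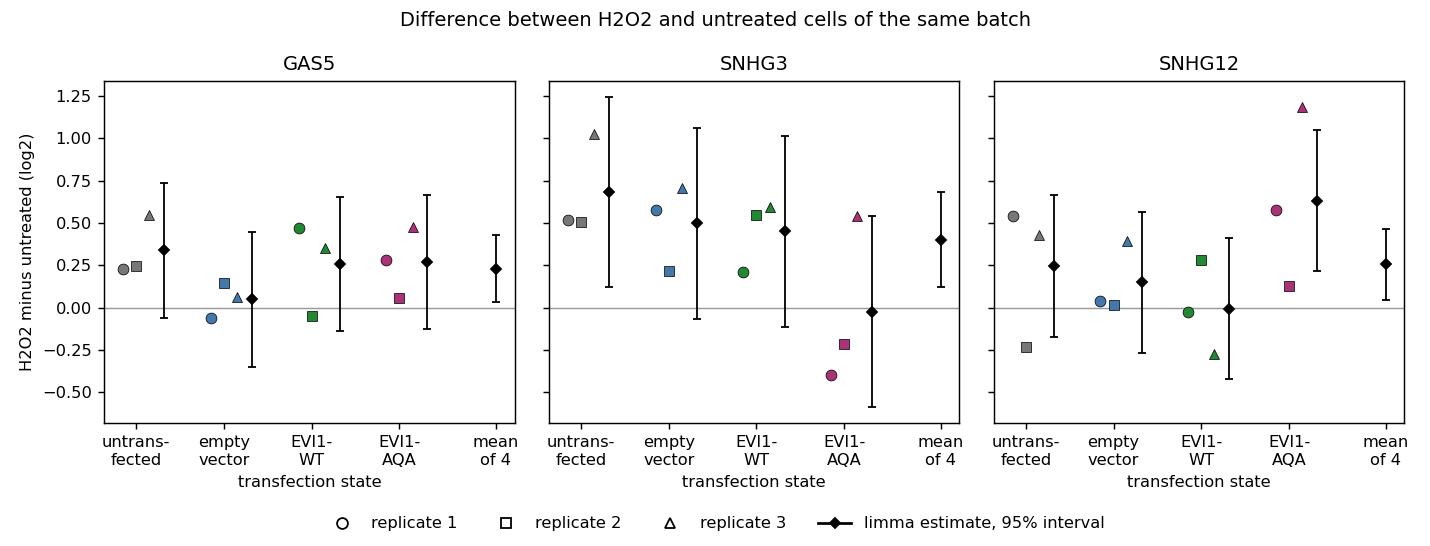
Difference in log2 expression between H2O2 and untreated cells of the same batch (vertical axis) for each transfection state (horizontal axis), with marker shapes for the replicates and black diamonds for the limma estimate with its 95% interval, for each state and for the mean of the 4 states. The averaged intervals lie above 0 in all 3 genes before adjustment, and the EVI1-AQA pairs of SNHG3 run from -0.40 to 0.54.

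Taken by transfection state, the H2O2 difference was spread unevenly over the states, and differed from gene to gene. GAS5 differed by 0.34 in untransfected cells (higher in 3 of 3 pairs), 0.049 with empty vector (2 of 3), 0.26 with EVI1-WT (2 of 3) and 0.27 with EVI1-AQA (3 of 3). Its limma adjusted p lay between 0.48 and 0.93. Without the low library of untreated untransfected cells the difference in untransfected cells was 0.12, and without the 3 libraries that went against their labels the one with empty vector was 0.12. The empty vector pairs of GAS5 ran from -0.064 to 0.15, the narrowest range of the 4 states.

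SNHG3 differed by 0.68 in untransfected cells (interval 0.12 to 1.25), by 0.50 with empty vector (-0.066 to 1.06) and by 0.45 with EVI1-WT (-0.11 to 1.01), each higher in 3 of 3 pairs. In EVI1-AQA cells the difference was -0.024 (interval -0.59 to 0.54), with 1 of 3 pairs higher. The limma adjusted p was 0.31, 0.41, 0.54 and 0.98 in these states. The difference of the effect itself, EVI1-AQA against empty vector, was -0.52 (interval -1.32 to 0.28), with a limma adjusted p = 0.64, where 11.4% of rows had an unadjusted p under 0.05. Without the library labelled EVI1-AQA H2O2 replicate 1, left out alone after seeing the data, the effect in EVI1-AQA cells was 0.34 and the difference from empty vector -0.16. Without all 3 libraries that went against their labels these values were 0.34 and -0.19. The direction in EVI1-AQA cells was also positive without batch 2, at 0.073. Without the low library of untreated untransfected cells the effect in untransfected cells was 0.43, with an unadjusted limma p of 0.15.

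SNHG12 had its highest H2O2 difference in EVI1-AQA cells, 0.63 (interval 0.21 to 1.05), with pairs from 0.13 to 1.19, all 3 higher. It was 0.25 in untransfected cells (2 of 3 higher), 0.15 with empty vector (3 of 3) and -0.0065 with EVI1-WT (1 of 3). Without the low library of untreated untransfected cells the difference in those cells was 0.10, and without the 3 libraries that went against their labels the one with empty vector was 0.24. In EVI1-AQA cells the unadjusted limma p was 0.0051 and the adjusted p = 0.15, and the other 3 states had adjusted p between 0.65 and 0.99. Of all rows, 0.553% passed the adjusted threshold in EVI1-AQA cells and 14.8% had an unadjusted p under 0.05. In the other states 0.00864% of rows passed in untransfected cells, 0.354% with empty vector and 0.0345% with EVI1-WT, and 12.6% and 14.6% had an unadjusted p under 0.05 in the first 2 of these.

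The difference between EVI1-AQA and EVI1-WT cells after H2O2 asks whether the phosphorylation sites bear on expression under stress. SNHG12 was higher with EVI1-AQA in 3 of 3 batches, by 0.48, 0.23 and 0.85, with a mean of 0.52 (interval 0.10 to 0.94). Its unadjusted limma p was 0.017 and its adjusted p = 0.48. Of all rows 8.33% had an unadjusted p under 0.05 in this comparison, and 0.00864% passed after adjustment. The H2O2 effect on SNHG12 differed between EVI1-AQA and EVI1-WT cells by 0.64 (interval 0.048 to 1.23), with an unadjusted limma p of 0.036, as 7.59% of rows had under 0.05, and an adjusted p = 0.62. SNHG3 stood on the other side, lower with EVI1-AQA than with EVI1-WT in 3 of 3 batches, with differences of -0.85, -0.35 and -0.0099, a mean of -0.41 (interval -0.97 to 0.16) and a limma adjusted p = 0.76. GAS5 differed by -0.033 (interval -0.43 to 0.36). Without the 3 libraries that went against their labels the difference was 0.50 in SNHG12, with an unadjusted p of 0.085 in limma, 0.0056 in SNHG3 and -0.20 in GAS5. The difference in the H2O2 effect on SNHG12 was then 0.61, with an unadjusted limma p of 0.093.

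Against empty vector after H2O2, EVI1-AQA gave 0.30 for SNHG12 (3 of 3 batches higher), -0.49 for SNHG3 (0 of 3 higher) and 0.12 for GAS5 (2 of 3 higher). EVI1-WT gave -0.22, -0.079 and 0.16 in the same genes. Without the 3 libraries that went against their labels EVI1-AQA gave 0.19 for SNHG12, -0.16 for SNHG3 and -0.010 for GAS5, and EVI1-WT gave -0.31, -0.16 and 0.19. With all libraries the limma adjusted p was 0.75 or above in all 6 of these comparisons. Of all rows 0.00864% passed for EVI1-AQA and 0 for EVI1-WT against empty vector, and 7.16% and 3.23% had an unadjusted p under 0.05. The H2O2 effect with EVI1-WT differed from that with empty vector by 0.21 for GAS5, -0.048 for SNHG3 and -0.16 for SNHG12, each with a limma adjusted p of 1.00, where 2.57% of rows had an unadjusted p under 0.05. Without the 3 libraries it differed by 0.24, -0.13 and -0.24. EVI1-AQA and EVI1-WT share the empty vector libraries here, so the 2 sets of values are not independent.

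In untreated cells the EVI1 plasmids gave smaller differences. EVI1-WT against empty vector gave -0.053 for GAS5, -0.031 for SNHG3 and -0.062 for SNHG12, and EVI1-AQA against empty vector gave -0.098, 0.037 and -0.18. EVI1-AQA against EVI1-WT gave -0.045, 0.068 and -0.12. The 95% intervals of these 9 differences reached at most 0.63 in size and all included 0. Empty vector against untransfected cells gave 0.13, 0.35 and 0.33, each higher in 2 of 3 batches, and after H2O2 it gave -0.15, 0.17 and 0.24, where 8.39% of rows had an unadjusted limma p under 0.05. Without the low library of untreated untransfected cells, the differences in untreated cells were -0.083 for GAS5, 0.098 for SNHG3 and 0.19 for SNHG12. Without the 3 libraries that went against their labels those after H2O2 were -0.079, 0.20 and 0.33. No row of the table passed the adjusted limma threshold in the 4 untreated comparisons, while an unadjusted p under 0.05 was reached by 5.01% for EVI1-WT and 11.8% for EVI1-AQA against empty vector, by 3.37% for EVI1-AQA against EVI1-WT and by 12.1% for empty vector against untransfected cells.

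**Figure D2:**
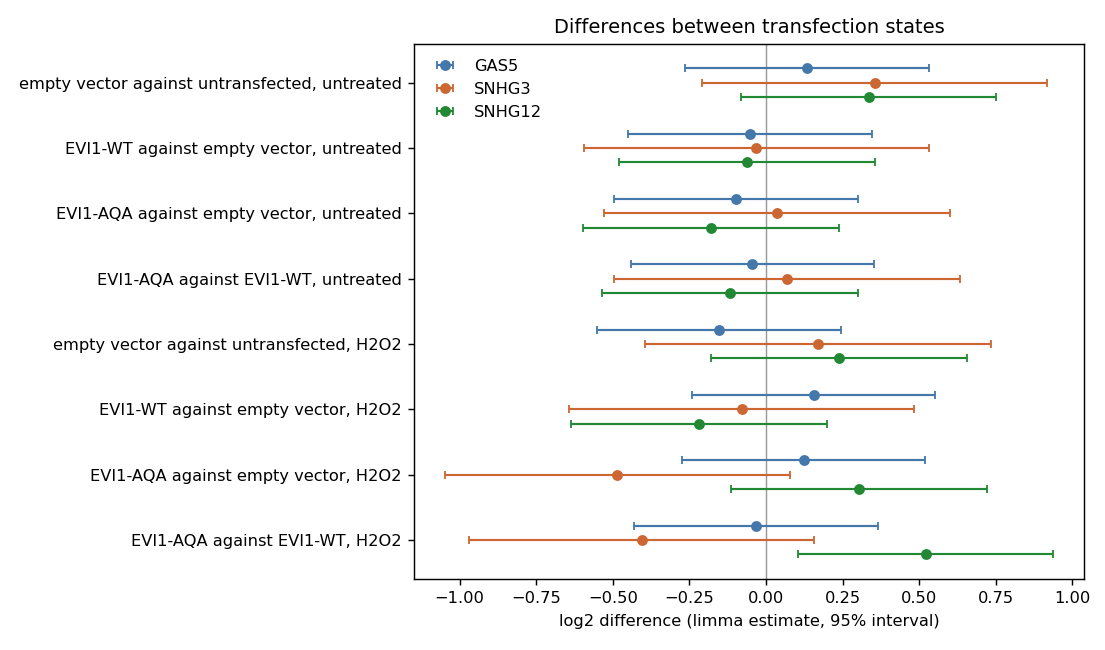
Log2 difference between transfection states (horizontal axis, limma estimate with its 95% interval) for GAS5, SNHG3 and SNHG12 in 8 comparisons (vertical axis), 4 in untreated and 4 in H2O2-treated cells. The interval of SNHG12 for EVI1-AQA against EVI1-WT after H2O2, 0.10 to 0.94 before adjustment, is the only one of the 24 that does not cross 0.

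The 3 host genes did not vary as a unit. Over the 24 libraries Pearson's r was 0.47 between GAS5 and SNHG12, 0.26 between GAS5 and SNHG3 and 0.23 between the neighbours SNHG3 and SNHG12. With the group means taken out it was 0.42, -0.038 and 0.12. Within batches of 8 libraries the values changed sign, as GAS5 and SNHG3 had r of -0.14, -0.52 and 0.92 in batches 1, 2 and 3, and GAS5 and SNHG12 had 0.57, -0.33 and 0.71. For SNHG3 and SNHG12 the values were -0.45, 0.0065 and 0.68. Batch 3, with the highest r in each pair of genes, holds the library that was lowest in all of them. Without that library r over 23 libraries was 0.32 for GAS5 and SNHG12, -0.015 for GAS5 and SNHG3 and 0.025 for SNHG3 and SNHG12. These correlations are descriptions over libraries that share batches and groups.

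Of the genes around the host genes, 1 passed the threshold for the averaged H2O2 effect, as 12.3% of all rows did in either direction. RCC1, a chromatin-bound exchange factor for Ran whose span contains SNHG3, differed by 0.10 (limma adjusted p = 0.25), and its r with SNHG3 over 24 libraries was 0.35. TRNAU1AP, a selenocysteine tRNA binding factor that ends against SNHG12, differed by -0.083 (adjusted p = 0.53), with r = -0.11 to SNHG12. TAF12, a subunit of TFIID upstream of SNHG12, differed by -0.15 (adjusted p = 0.17). Of the 6 neighbours of SNHG3 and SNHG12, 0 passed the adjusted limma threshold, with a median of 0.0087. Before adjustment 2 of the 6, GMEB1 (0.15) and TAF12, had intervals that did not cross 0. Of all rows 27.8% had an unadjusted limma p under 0.05 for the same effect. ZBTB37, a zinc finger gene that starts head to head with GAS5, differed by -0.15 (adjusted p = 0.48), with r = -0.37 to GAS5. Of the 4 neighbours of GAS5, 1 rose, the centromere protein gene CENPL, by 0.39 (adjusted p = 0.0061).

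Other genes of the same biology on chromosomes 1 and X were described by their counts for the averaged H2O2 effect, beside a median of 0.0016 over all rows and of 0.0054 over the 1541 rows named for genes of these chromosomes, of which 118 rose and 90 fell. Among 10 other snoRNA host genes, most of them protein-coding, 3 rose and 0 fell in limma. RABGGTB, a subunit of Rab geranylgeranyl transferase, rose by 0.91 (SE 0.13, adjusted p = 0.00069) and KIAA0907, which encodes an RNA-binding KH domain protein, by 0.44 (adjusted p = 0.020). The other 7 did not pass, among them RPL5 (-0.0090) and RPL10 (-0.11), and the median of the 10 was 0.048. The 3 non-coding hosts lay at 0.23 to 0.40, between RABGGTB and the host genes that encode ribosomal proteins.

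Of 9 cytosolic ribosomal protein genes, members of the oligopyrimidine class, 2 rose and 0 fell, RPL39 by 0.34 (limma adjusted p = 0.026) and RPL36A by 0.36 (adjusted p = 0.030), and the median was 0.036. Both have near-identical copies elsewhere in the genome, so their values are uncertain. Of 15 ribosome biogenesis genes 1 passed, DNTTIP2, an rRNA processing factor, which rose by 0.41 (adjusted p = 0.0053). Of the 15, 13 had a positive difference, and the median was 0.19. Of 5 genes of nonsense-mediated decay and the exon junction complex 2 rose, the junction complex subunit MAGOH by 0.28 (adjusted p = 0.018) and the decay factor UPF3B by 0.31 (adjusted p = 0.048), and the median was 0.12. The counts of genes that rose are set against the 6.62% of rows that rose over the whole table. The count of positive differences is set against 5833 of all 11579 rows. The lists hold only 5 to 15 genes, and whether any of them departs from all rows was not tested.

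**Figure D3:**
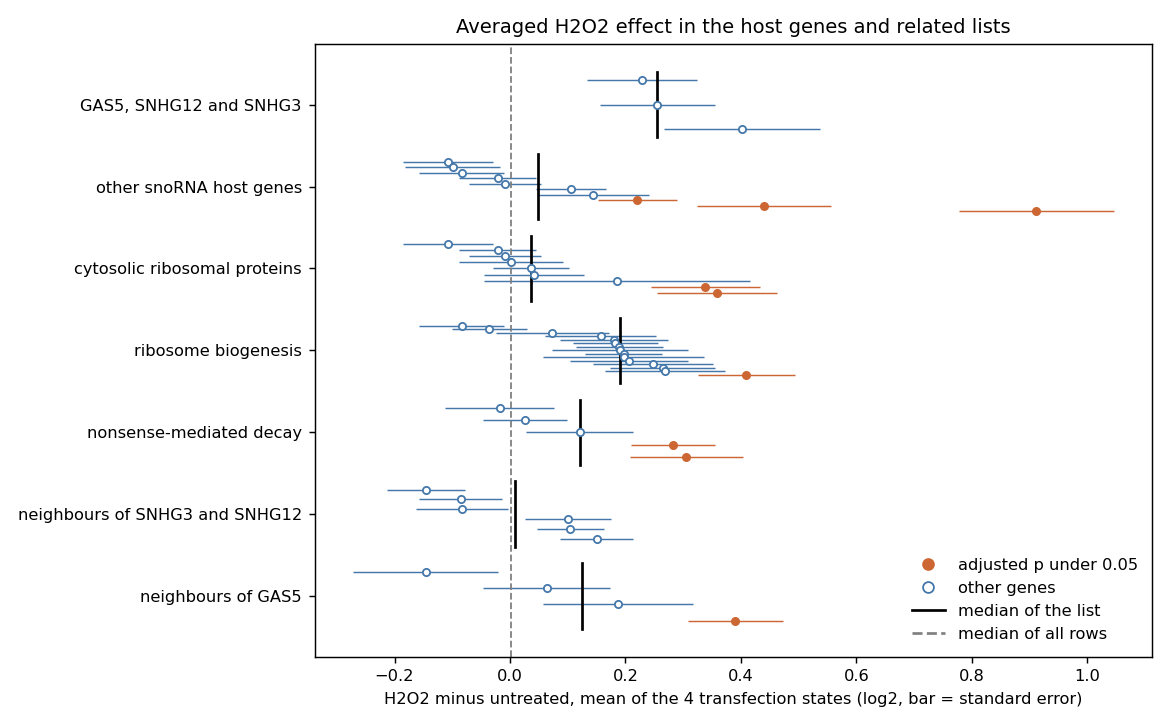
Averaged H2O2 difference in log2 expression (horizontal axis) for single genes (points, with bars of 1 standard error) in each list (vertical axis), with filled points for an adjusted limma p under 0.05, a bar at the median of each list and a dashed line at the median of all rows. GAS5, SNHG12 and SNHG3 lie at 0.23, 0.25 and 0.40, and RABGGTB at 0.91.

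Among 1540 other rows named for genes of chromosomes 1 and X, those most like each host gene over the 24 libraries were taken by Pearson's r. For GAS5 they were SERTAD4-AS1 (0.77), SRSF10 (0.77), a splicing factor, TRAPPC2 (0.76), MRPL37 (0.72), a mitochondrial ribosomal protein, and RPL39 (0.68), a cytosolic one. For SNHG3 they were FAM127A (0.82), KCNK1 (0.75), SNAP47 (0.72), TCEB3 (0.70), the elongin A subunit, and NUDT11 (0.70). For SNHG12 they were TRIT1 (0.71), a tRNA isopentenyltransferase, COA6 (0.68), VAMP3 (0.66), SRRM1P3 (0.64) and GPATCH3 (0.64). These are the highest of many values, and the 99th percentile of r was 0.59 for GAS5, 0.63 for SNHG3 and 0.52 for SNHG12. Without the library that was lowest in all 3 host genes the same rows had r from 0.56 to 0.76. FAM127A, NUDT11, RPL39 and the pseudogene SRRM1P3 have near-identical copies, and their values are uncertain.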

How the data were processed

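QuantSeq 3′ mRNA libraries of 24 HEK293 samples were mapped by the authors to GRCh38 with an Ensembl annotation and then filtered on FPKM and analysed with the Qlucore software. The aligner is not given in the sources used here. The deposited values are log2 expression after the authors' normalization, and every row is centred within batches, a step that their methods do not name. Depth is unknown, and 3 samples per group limit the precision. Batches and groups come from the labels.

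The 8 group means were fitted to all 11579 rows and 24 samples with limma 3.58.1 in R 4.3.3, with the replicate number as a block because the labels call it a batch and the centring uses its degrees of freedom. This left 14 residual degrees of freedom, to which limma's prior added 5.04. Tests were two-sided, with Benjamini-Hochberg adjustment over all rows and a threshold of 0.05. The fit was tested on simulated data. The centring fixes correlations between same-numbered samples, so they do not show pairing. The 12 H2O2 pairs per gene were also compared by an exact permutation test.

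The genes and lists were chosen with earlier results of these data known. Named genes are the 3 host genes, the list genes past the threshold (up to 4 per list), neighbours, and the 5 rows most alike by Pearson's r. Some genes and 1 sequence set in this way are not reported here. A few other list genes and the row labelled CACNB3 were named after their values were seen. Alternatives were no block, sample medians set to 0, quantile normalization, leaving out each replicate, each comparison's own samples, rows of chromosomes 1 and X only, and leaving out doubted libraries. Positions and sequences come from GENCODE v44 on GRCh38, another release than the authors', and snoRNA genes from RefSeq (GRCh38.p14). Python 3.11.15 with pandas 2.3.3, numpy 2.4.6 and matplotlib 3.10.9 was used for the other steps.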

Additional observations from a re-analysis of the deposited data

How the results depend on the processing

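The averaged H2O2 effects kept their direction in GAS5, SNHG3 and SNHG12 under all 13 alternatives. Without the replicate block, SNHG3 was at 0.40 and passed the threshold (limma adjusted p = 0.034), and GAS5 (adjusted p = 0.081) and SNHG12 (adjusted p = 0.065) did not. Because rows are already centred within batches, that fit left the estimates unchanged. It does not count the degrees of freedom that the centring uses, so its p-values are too small and its pass adds no support. SNHG3 also passed after quantile normalization (0.40, adjusted p = 0.045), without the 3 doubted H2O2 libraries (0.49, adjusted p = 0.032) and, in an alternative chosen after seeing the data, without EVI1-AQA H2O2 replicate 1 alone (0.49, adjusted p = 0.012). Over its alternatives the adjusted p ran from 0.012 to 0.38. Leaving out each replicate gave 0.24 to 0.49 for SNHG3, 0.16 to 0.29 for GAS5 and 0.17 to 0.36 for SNHG12. SNHG3 passed without replicate 1 (0.49, adjusted p = 0.047). The number of rows called for the averaged effect, 1420, was 177 to 686 without 1 replicate, 941 without the 3 doubted libraries and 223 with chromosomes 1 and X only, where fewer rows were tested. Other causes were not tested.

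Of 660 alternative values for 51 results, 30 changed direction, in 19 results, and 0 of these passed the threshold. Leaving out each replicate gave, for the H2O2 effect, -0.15 to 0.13 for SNHG12 with EVI1-WT and -0.31 to 0.16 for SNHG3 with EVI1-AQA. In untreated cells it gave -0.082 to 0.43 for GAS5 with empty vector against untransfected cells. For EVI1-WT against empty vector it gave -0.22 to 0.12 for GAS5, -0.094 to 0.076 for SNHG3 and -0.13 to 0.061 for SNHG12, and for EVI1-AQA against empty vector -0.029 to 0.15 for SNHG3 and -0.31 to 0.012 for SNHG12. For EVI1-AQA against EVI1-WT it gave -0.18 to 0.068 for GAS5, -0.10 to 0.23 for SNHG3 and -0.37 to 0.13 for SNHG12. After H2O2 it gave -0.28 to 0.042 for GAS5 with empty vector against untransfected cells, -0.16 to 0.037 for SNHG3 with EVI1-WT against empty vector and -0.067 to 0.034 for GAS5 with EVI1-AQA against EVI1-WT. The H2O2 effect of EVI1-WT against empty vector cells ran from -0.24 to 0.11 for SNHG3 and from -0.37 to 0.10 for SNHG12, and that of EVI1-AQA against EVI1-WT cells from -0.044 to 0.11 for GAS5.

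Quantile normalization gave 0.0024 for the H2O2 effect on SNHG12 with EVI1-WT. Without the 3 doubted libraries the H2O2 effect on SNHG3 with EVI1-AQA was 0.34, and after H2O2 GAS5 was at -0.010 for EVI1-AQA against empty vector and SNHG3 at 0.0056 for EVI1-AQA against EVI1-WT. The difference in the H2O2 effect on GAS5 between EVI1-AQA and EVI1-WT cells was 0.011, and -0.15 without the 3, -0.033 without EVI1-AQA H2O2 replicate 1 and -0.081 without EVI1-WT H2O2 replicate 2. Without EVI1-AQA H2O2 replicate 1 SNHG3 was at 0.34 for the H2O2 effect in EVI1-AQA cells. Without untransfected untreated replicate 3, left out after seeing the data, GAS5 was at -0.083 for empty vector against untransfected cells. The cause of these changes was not tested, and depth could not be assessed.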
